A study of Mus musculus with 14 samples.

Results

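The comparison set regulatory T cells (Treg cells) taken from an allogeneic tumor directly against Treg cells taken from graft-versus-host disease (GVHD), without subtracting the resting controls of either. Its members are 8 of the 14 Affymetrix mouse arrays of the series, chosen by their labels: tumor-activated replicates 1 to 5 and GVHD-activated replicates 1 to 3. The other 6 arrays are naive Treg cells, replicates 1 to 3 and 4 to 6, which entered the fit as 2 further groups. In every group the sorted cells carried a knock-in that places GFP behind Foxp3, made in 129/SvJ mice (H-2b). Tumor-activated cells were sorted from peritoneal ascites of such mice on day 5 after injection of 1000000 P815 cells, an H-2d mastocytoma of the DBA/2 strain. GVHD-activated cells were sorted on day 4 from the spleens of H-2d hosts (BALB/c mice) given 900 cGy, 2000000 knock-in CD4+ and CD8+ T cells and 2000000 wild-type 129/SvJ marrow cells. Naive cells came from resting knock-in spleens. The labels state a sort purity above 95% for all groups except naive replicates 1 to 3, whose labels give none. They do not say whether replicates came from separate animals or pools, so p-values reflect only the spread among these arrays, which may be technical. Site (ascites or spleen), day, host strain and irradiation all differ between the tumor and GVHD groups. The GVHD arrays were also deposited at another scale than the tumor arrays, and batch and group cannot be told apart.

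Treg cells are CD4 T cells held in their state by the transcription factor Foxp3, and they restrain other immune cells. They need interleukin-2 from other cells, which they bind through a receptor whose alpha chain is Il2ra, and they act through surface proteins such as Ctla4, through cytokines such as interleukin-10, through adenosine made by Nt5e, and through granzymes and perforin. In allogeneic transplantation they limit GVHD, and in tumors they limit the response against the tumor.

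Foxp3 itself gave no check of the sort. Its only probe set read at most 94.7 on the GVHD arrays, less than that on every tumor array and at most 108 on any array, and did not pass the filter on dim signals. Levels here are scaled signals, the deposited intensities after each array was brought to the same trimmed mean of 500. A log2 difference is tumor minus GVHD on log2(signal + 32), a scale on which changes of dim genes look smaller than they are. A gene is called higher or lower where limma's Benjamini-Hochberg adjusted p over all 12212 genes was under 0.05, and every adjusted p printed is limma's.

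Correlations between arrays were 0.929 to 0.941 within GVHD and 0.878 to 0.982 within tumor, where tumor replicate 3 reached at most 0.911 with any other tumor array. Tumor replicate 3 had 37.3% of probe sets at a signal of 100 or more, against 45.6% to 47.7% on the other tumor arrays and 46.8% to 50.4% on the GVHD arrays. Tumor replicate 2 had a Gapdh 3'/5' ratio, a sign of RNA degradation, of 19.9, against 2.19 to 2.64 on the other tumor arrays and 3.28 to 4.50 on the GVHD arrays. Results are given on all 8 arrays, and without tumor replicate 3 where that matters.

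Genes of T cells were lower, and genes of macrophages and mast cells much higher, on every tumor array. Summed over 19 genes of the T cell receptor and lineage, the signal was 161160 to 188100 on the GVHD arrays, 38450 to 80891 on 4 tumor arrays and 14072 on tumor replicate 3. The summed signal of 25 macrophage and monocyte genes was 2768 to 4176 in GVHD and 119980 to 252200 in tumor. That of 15 mast cell and mastocytoma genes was 873 to 1103 in GVHD and 82317 to 175720 in tumor. Tumor replicate 3 was the highest array in both of these sums. The part of other cells in the results below was not tested, and with bulk RNA fewer T cells and less RNA per T cell cannot be told apart. Many results are therefore also given relative to the T cell genes, with every array centred on the mean log2 signal of those 19 genes and tumor replicate 3 left out. A gene that other cells also express cannot be assigned to T cells on this measure.

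**Figure D1:**
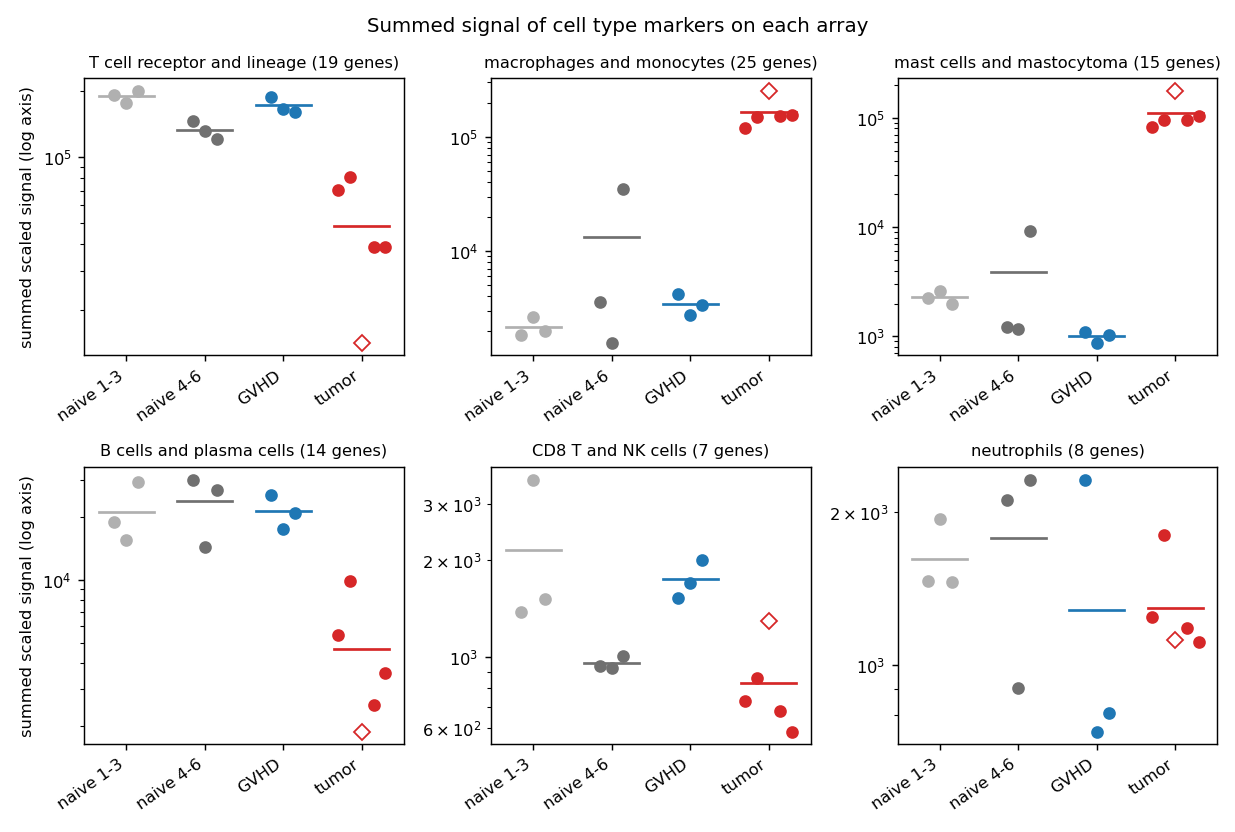
Summed scaled signal (log axis) of 6 marker lists on each of the 14 arrays, by group; points are arrays, the open diamond is tumor replicate 3 and bars are group means. T cell genes sum to 161160 to 188100 on the GVHD arrays and 14072 to 80891 on the tumor arrays, while macrophage genes sum to 2768 to 4176 and 119980 to 252200.

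Between the groups 4744 genes (38.8% of those tested) were called: 2468 (20.2%) were higher and 2276 (18.6%) lower in tumor-activated cells, and 754 and 242 of these differed at least 4-fold. All 5 tumor arrays lay above all 3 GVHD arrays in 2235 genes (18.3%) and below them in 2266 (18.6%). As a yardstick for arrays that hold the same cells by label, naive replicates 4 to 6 differed from naive replicates 1 to 3 in 960 genes (7.86%) by the test. Their arrays, 3 against 3, did not overlap in 4889 genes (40%), so separation of arrays alone was as frequent between the naive sets. These shares are not like for like, because 3 arrays separate from 3 by order alone more readily than 5 from 3. The naive sets also differed in Gapdh 3'/5' ratio, which was 4.27 to 5.11 in replicates 1 to 3 and 7.45 to 19.1 in replicates 4 to 6. Without tumor replicate 3 the calls were 3192 higher (26.1%) and 2730 lower (22.4%), and 2433 and 2199 of the original calls were among them. Relative to the T cell genes the balance changed: 9099 genes (74.5%) were then higher and 90 (0.737%) lower, with a median over all genes of 1.49 against -0.09 on the array scale. Of the 2276 genes lower on the array scale, 89 were lower relative to the T cell genes and 333 were higher.

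Of the 19 measured T cell genes 16 were called lower (18.6% of all genes were) and 0 higher (20.2%). Their median log2 difference was -2.16 against -0.09 over all genes. Tumor replicate 3 was the lowest tumor array for 18 of the 19 (45.6% of all genes). Cd3e, a signalling chain of the T cell receptor, read 2359, 1831 and 2535 on the GVHD arrays and 922, 1261, 39.5, 632 and 574 on tumor replicates 1 to 5. The groups did not overlap, and the log2 difference was -2.14 (SE 0.65, adjusted p = 0.017). Cd4, the co-receptor the cells were named for, read 3306, 2890 and 2164 in GVHD against 1249, 1298, 21.6, 708 and 687 in tumor (log2 -2.35, adjusted p = 0.019). Both calls were lost in some fits without a GVHD array, though the differences changed little. Cd3e stood at -2.09 (adjusted p = 0.055) without GVHD replicate 1 and at -2.04 (0.058) without replicate 3. Cd4 stood at -2.21 (0.069) and -2.31 (0.058) without GVHD replicates 1 and 2. Without tumor replicate 3 the differences were smaller, -1.43 for Cd3e and -1.51 for Cd4, but firmer (adjusted p = 7.3e-04 and 1.3e-04). The members that fell furthest were Thy1, a surface glycoprotein of T cells (log2 -3.67), Zap70, the kinase that carries the receptor's signal (-3.51), and Cd6 (-3.11). They stood at -3.10, -2.64 and -2.17 without tumor replicate 3. Relative to the list itself Thy1 (-1.59, adjusted p = 4.5e-04) and Zap70 (-1.13, adjusted p = 0.0012) were still lower, while Bcl11b, a T cell transcription factor (2.17), the receptor-associated adaptor Trat1 (2.04) and Rhoh, a GTPase of T cell receptor signalling (0.98), were higher. Centring on the mean of a list places its members on both sides.

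The largest differences upward were genes of macrophages and of mast cells. Arg1, the arginase of alternatively activated macrophages, read 23.3, 58.4 and 50.4 in GVHD and 25552, 28669, 39333, 27486 and 28346 in tumor, a log2 difference of 8.63 (SE 1.05, adjusted p = 1.5e-05). Chil3, a chitinase-like protein of the same cells, differed by 9.48, Cd5l, a protein of tissue macrophages, by 8.21, Saa3, an acute phase protein, by 7.55, Alox15, a lipoxygenase of peritoneal macrophages, by 7.49, and the matrix protein Fn1 by 7.24. Adgre1, the macrophage surface protein F4/80, read 52.1 to 168 in GVHD and 4869 to 15896 in tumor (log2 6.20, adjusted p = 8.1e-07). Of the 25 macrophage genes 23 were called higher (20.2% of all genes were) and 0 lower (18.6%), with a median of 4.14.

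Mast cell genes behaved alike in size. Cpa3, the carboxypeptidase of mast cell granules, read 29.0, 24.7 and 62.1 in GVHD and 11197, 21898, 22942, 9755 and 13706 in tumor (log2 7.77, SE 0.69, adjusted p = 8.1e-07). Tph1, which makes serotonin in mast cells, differed by 8.30, the granule proteases Ctsg and Mcpt8 by 7.78 and 7.54. Trap1a, which encodes the P1A antigen of P815 cells, and the X-linked homeobox gene Rhox5 differed by 7.65 and 8.44, and Trap1a read 7558 to 32684 on the tumor arrays against at most 74.9 on the GVHD arrays. Of 15 measured genes 12 were called higher and 1 lower, against 20.2% and 18.6% of all genes. The tryptase Tpsab1 was the 1 called lower (log2 -0.97, adjusted p = 0.027), and it missed the threshold in 4 of the 8 fits that left out an array, those without GVHD replicate 1 or 2 or tumor replicate 1 or 5. These genes were not confined to the tumor arrays: naive replicate 6 read 1402 for Trap1a, 1851 for Rhox5, 4882 for Arg1 and 16435 for Chil3.

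**Figure D2:**
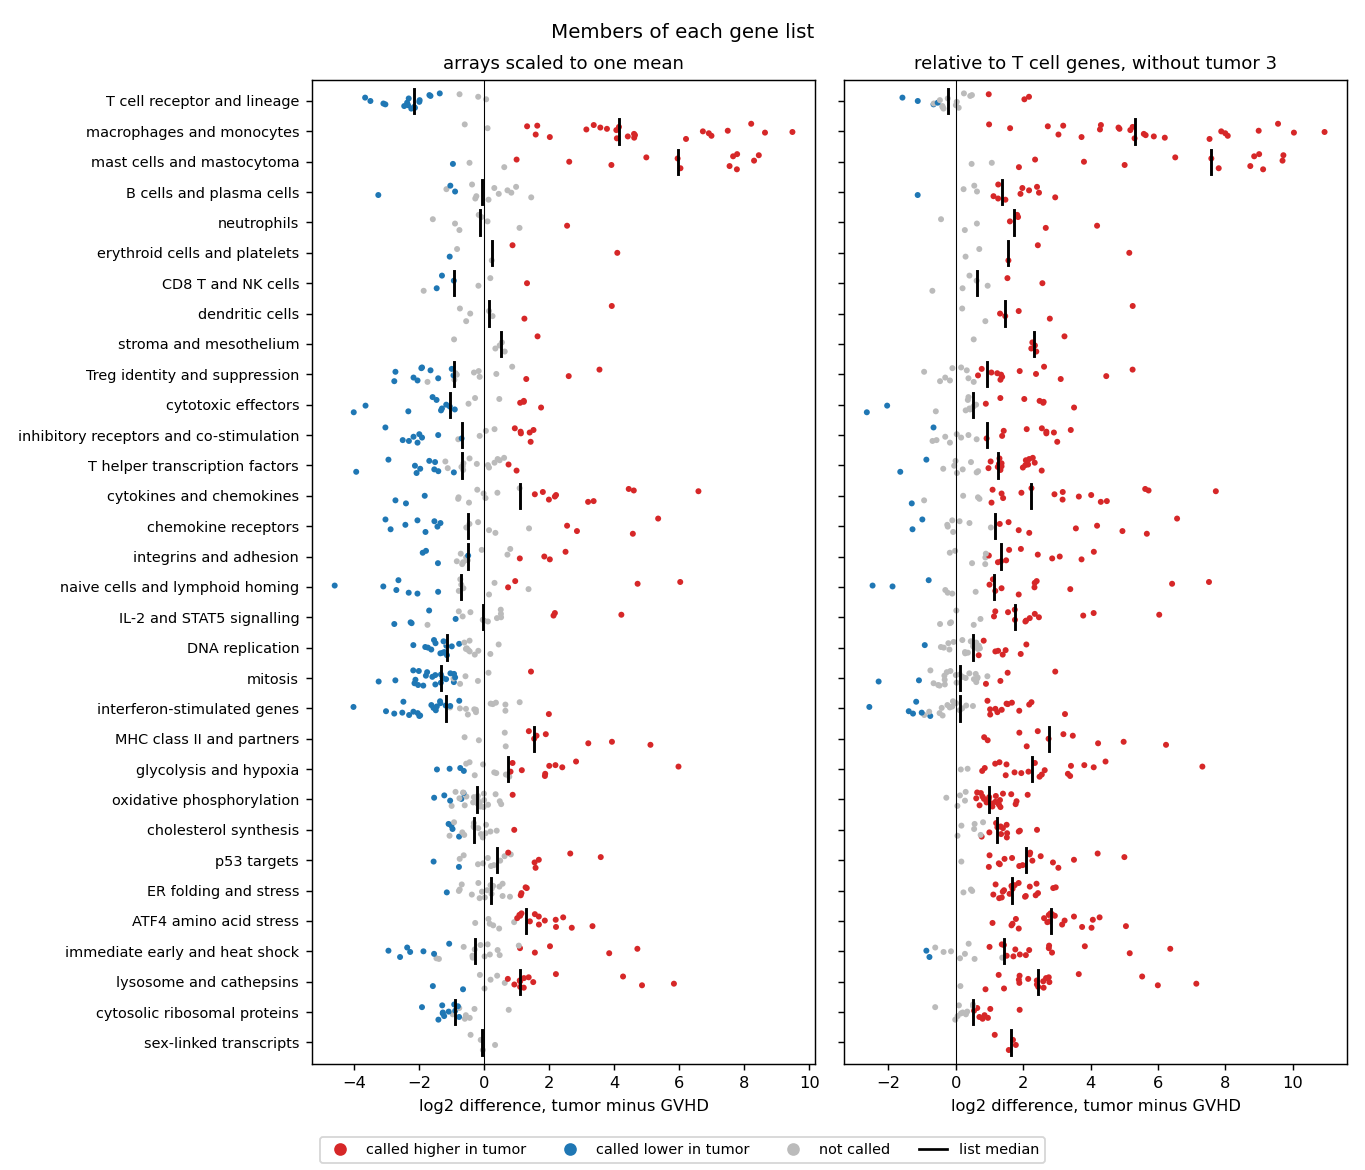
Log2 difference, tumor minus GVHD, of every measured member of 32 gene lists, on the array scale (left) and relative to the 19 T cell genes without tumor replicate 3 (right). Red and blue points are genes called higher and lower in tumor-activated cells, grey points are not called, and black bars are list medians; macrophage and mast cell lists stand highest on both sides, while the medians of T cell, mitosis and interferon lists lie near -2.16, -1.34 and -1.19 on the left and near 0 on the right.

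Granzymes were lower in tumor-activated cells, and perforin was higher. Gzmb, the protease granzyme B, read 92121, 86413 and 72661 on the GVHD arrays and 20059, 40643, 8573, 15552 and 11040 on the tumor arrays. The groups did not overlap (5.06-fold lower in tumor, log2 -2.34, SE 0.42, adjusted p = 4.9e-04). Gzma, granzyme A, read 8379, 8108 and 10430 in GVHD and 648, 964, 772, 234 and 323 in tumor, 16.2-fold lower (log2 -4.02, SE 0.51, adjusted p = 2.2e-05). Nkg7, a membrane protein of cytotoxic granules, read 6669 to 12326 in GVHD and 413 to 1770 in tumor (log2 -3.66, adjusted p = 8.2e-06). Tumor levels of Gzmb stayed above the 612 ± 124 and 2208 ± 1361 (SD, n = 3 each) of the naive sets. Prf1, the pore-forming protein, ran the other way: 1438, 1290 and 642 in GVHD against 4331, 3812, 1771, 3501 and 6174 in tumor, 3.35-fold higher (log2 1.74, SE 0.36, adjusted p = 0.0015). A second, dim probe set of Prf1 differed by -0.65.

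Of 17 measured cytotoxic effectors 10 were called lower and 4 higher (median -1.06), against 18.6% and 20.2% of all genes. The higher ones besides Prf1 were Ctsc, the cathepsin that activates granzymes (log2 1.21), Serpinb9, the inhibitor of granzyme B (1.21), and Lamp1, a lysosomal membrane protein. Relative to the T cell genes 2 stayed lower, Gzma (log2 -2.64, adjusted p = 3.7e-05) and Nkg7 (-2.04, adjusted p = 3.2e-05), and Gzmb was at -0.59 (adjusted p = 0.071). On that scale 7 were higher, among them Prf1 at 3.51 and Serpinb9 at 2.49. Of all genes 0.737% were lower and 74.5% higher on it. Macrophage genes were also up on the same arrays, and Ctsc and Lamp1 are expressed in macrophages.

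**Figure D3:**
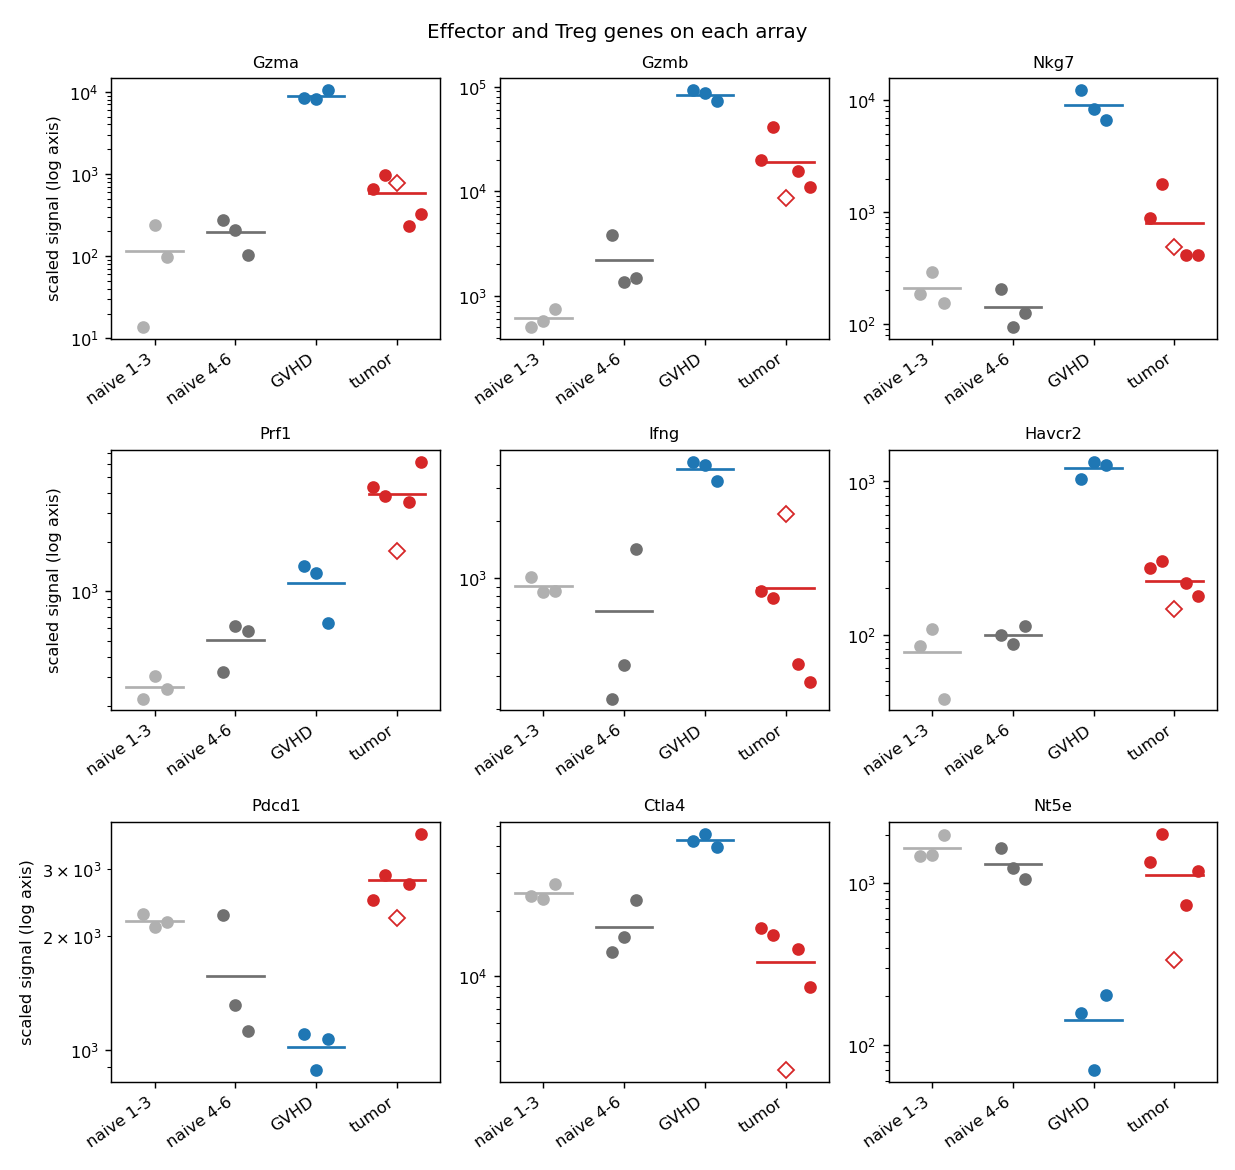
Scaled signal (log axis) of 9 effector and Treg genes on each array, by group; bars are group means and the open diamond is tumor replicate 3. Gzma, Gzmb, Nkg7, Ifng, Havcr2 and Ctla4 lie lower on all 5 tumor arrays than on all 3 GVHD arrays, and Prf1, Pdcd1 and Nt5e lie higher.

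Among genes of Treg identity and suppression 10 of 22 measured members were called lower and 3 higher on the array scale, and 9 were not called (median -0.94). Of all genes 18.6% were called lower and 20.2% higher. Tumor replicate 3 was the lowest tumor array for 20 of the 22 (45.6% of all genes). Ctla4, the receptor that strips co-stimulatory ligands from other cells, read 42283, 45725 and 39850 in GVHD and 16594, 15512, 3633, 13269 and 8899 in tumor, 4.16-fold lower (log2 -2.06, SE 0.38, adjusted p = 6.5e-04). Il2rb, the beta chain of the interleukin-2 receptor, read 4533 to 7254 in GVHD and 57.8 to 2403 in tumor (log2 -2.77, adjusted p = 0.0067). It differed by -1.98 without tumor replicate 3. Il10, a suppressive cytokine, read 744 to 1978 in GVHD and 45.0 to 343 in tumor (log2 -2.74, adjusted p = 9.4e-04). Tnfrsf4, the co-stimulatory receptor OX40, differed by -2.18 (adjusted p = 0.0034). Relative to the T cell genes none of the 22 was lower (0.737% of all genes were) and 13 were higher (74.5% of all genes were). On that scale Ctla4, Il2rb and Il10 were at -0.18, -0.47 and -0.94 with adjusted p of 0.56, 0.15 and 0.083.

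Il2ra, the alpha chain CD25, read 14193, 13500 and 14129 on the GVHD arrays and 10913, 9823, 460, 5567 and 4144 on the tumor arrays. The log2 difference was -1.75 with adjusted p = 0.055, so it was not called, but it was without tumor replicate 1 (-2.10, 0.025), replicate 2 (-2.06, 0.027) or replicate 3 (-0.98, 0.0095). Ikzf2, the transcription factor Helios, read 11411, 13534 and 15939 in GVHD and 13900, 19395, 896, 8511 and 8643 in tumor. It did not pass (log2 -0.92, SE 0.65, adjusted p = 0.28), and without tumor replicate 3 it stood at -0.19. Tnfrsf18, the receptor GITR, read 16637, 14261 and 16940 against 9390, 9761, 2674, 6634 and 4462, and was lower (log2 -1.42, adjusted p = 0.0039).

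The 3 Treg genes called higher were Nt5e, Fgl2 and Ikzf4. Nt5e, the ectoenzyme CD73 that makes adenosine, read 157, 69.6 and 202 in GVHD and 1355, 2021, 333, 739 and 1198 in tumor, 6.04-fold higher (log2 2.60, SE 0.44, adjusted p = 2.7e-04). The naive sets averaged 1655 ± 293 and 1320 ± 302 (SD, n = 3 each), and every GVHD array read below every naive array. Fgl2, a secreted suppressive protein that macrophages also make, was higher (log2 3.54, adjusted p = 1.7e-06). Ikzf4, the factor Eos, read 526 to 715 in GVHD and 596 to 2765 in tumor, with overlapping groups (log2 1.29, adjusted p = 0.022). Its call was lost without GVHD replicate 1 or 3 or tumor replicate 1 or 4, and another of its probe sets differed by -0.48.

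Inhibitory receptors did not move together. Pdcd1, the receptor PD-1, read 1100, 882 and 1064 in GVHD and 2484, 2884, 2226, 2731 and 3713 in tumor, 2.68-fold higher with no overlap (log2 1.42, SE 0.25, adjusted p = 3.9e-04). Havcr2, the receptor TIM-3, read 1036, 1339 and 1282 in GVHD and 271, 304, 147, 216 and 179 in tumor, 5.00-fold lower (log2 -2.32, SE 0.29, adjusted p = 1.6e-05). Lag3, a receptor for MHC class II, was 5.70-fold lower (log2 -2.51, adjusted p = 0.0011), and Cd5, which damps receptor signals, 8.25-fold lower. With tumor replicate 3 left out they were 4.24-fold and 4.51-fold lower. Of 19 measured receptors and ligands 9 were called lower and 6 higher, against 18.6% and 20.2% of all genes. Relative to the T cell genes Pdcd1 was at 3.01 (adjusted p = 5.6e-07), Cd5 was still lower (-0.66, adjusted p = 0.014), and Havcr2 and Lag3 were at -0.69 and -0.57 and not called. The ligands Tnfsf11 (log2 1.51) and Cd86 (1.39), dim in GVHD and overlapping between groups, lost their calls in 4 and 2 of the 8 fits without an array, those without GVHD replicates 2 or 3 and, for Tnfsf11, tumor replicates 1 or 2.

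Of 26 transcription factors of T helper differentiation 10 were called lower and 2 higher, and 14 were not called (median -0.68). Of all genes 18.6% were called lower and 20.2% higher. Gata3, which drives type 2 helper cells and is also used by Treg cells, read 5107, 4219 and 5381 in GVHD and 669, 940, 4.50, 344 and 322 in tumor, 15.4-fold lower (log2 -3.94, SE 0.70, adjusted p = 4.3e-04). With tumor replicate 3 left out Gata3 was 8.94-fold lower. It was lower relative to the T cell genes too (-1.65, adjusted p = 1.8e-05). Tbx21, the factor T-bet of type 1 cells, read 1843, 2294 and 2543 in GVHD and 1126, 774, 66.0, 676 and 598 in tumor (log2 -2.09, adjusted p = 0.0081), and relative to the T cell genes it was at 0.03. Nr4a1, an early product of receptor signalling, was lower (log2 -2.95, adjusted p = 5.8e-04) and stayed so relative to the T cell genes (-0.87, adjusted p = 0.0079). Stat4, which relays interleukin-12, differed by -2.14. Prdm1, the factor Blimp-1, was not called (log2 -1.13, adjusted p = 0.12). Bcl6, its antagonist, was higher (log2 0.99, adjusted p = 0.0065), from 44.6 to 89.9 in GVHD to 110 to 218 in tumor. Id2 was called higher with overlapping arrays (log2 0.74, adjusted p = 0.039), lost its call in 5 of the 8 fits, those without GVHD replicates 2 or 3 or tumor replicates 1, 2 or 5, and had another probe set at -1.20.

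Of 19 measured genes of interleukin-2 signalling 5 were called lower and 3 higher, which is near the 18.6% and 20.2% of all genes. Without tumor replicate 3 these counts were 6 and 8, and the shares of all genes 22.4% and 26.1%. The kinase Jak1 read 6730, 6459 and 6843 in GVHD and 2543, 2288, 274, 1557 and 1970 in tumor (log2 -2.24, SE 0.49, adjusted p = 0.0023), and Jak3 differed by -2.27. On the scale of the T cell genes they were at -0.17 and -0.14 (adjusted p = 0.54 and 0.66). Bcl2, a survival protein, was the reverse, at 295, 200 and 326 in GVHD against 7092, 4849, 2298, 9084 and 7301 in tumor, 18.6-fold higher (log2 4.21, SE 0.36, adjusted p = 5.3e-07). The naive sets averaged 6091 ± 454 and 10038 ± 2088 (SD, n = 3 each). Myc, a driver of growth, read 337, 375 and 567 in GVHD and 2253, 2647, 608, 2404 and 3450 in tumor (log2 2.17, adjusted p = 8.5e-04), and the survival kinase Pim2 differed by 2.13.

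Receptors for migration separated the groups in both directions. Cxcr3, the receptor for interferon-induced chemokines, read 29142, 23797 and 23666 in GVHD and 9267, 12699, 714, 5040 and 5204 in tumor (log2 -2.43, SE 0.61, adjusted p = 0.0056), and relative to the T cell genes it was at -0.25. S1pr4, a sphingosine phosphate receptor of lymphocytes, read 16322, 15907 and 14546 against 3664, 3480, 395, 2208 and 1931, 8.24-fold lower, and stayed lower relative to the T cell genes (-0.99, adjusted p = 0.0015). Ccr8, a chemokine receptor of Treg and type 2 cells, was lower (log2 -2.88), from 447 to 503 in GVHD to 19.6 to 87.4 in tumor, and also stayed lower (-1.29, adjusted p = 0.0084). Ccr6, the receptor for Ccl20, read 143, 113 and 36.2 in GVHD and 1814, 1503, 137, 1034 and 920 in tumor. It was higher (log2 2.85, adjusted p = 0.0011), although tumor replicate 3 lay within the GVHD range. The naive sets averaged 2065 ± 146 and 5011 ± 1106 (SD, n = 3 each). Of 18 receptors 8 were called lower (18.6% of all genes were) and 4 higher, the latter near the 20.2% of all genes. The others called higher, Ackr3 (log2 5.35), Ccr1 (4.57) and Cxcr2 (2.55), are receptors of myeloid or stromal cells. Ccr1 and Ackr3 were highest on tumor replicate 3, as the macrophage and mast cell sums were. Cxcr2 was lowest there, at 236 against 331 to 510 on the other tumor arrays. The part of other cells was not tested. Ccr7, which leads cells into lymph nodes, did not differ by the test (log2 0.14, adjusted p = 0.72), at 388 to 558 in GVHD and 275 to 862 in tumor, and it read -0.03 without tumor replicate 2.

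Among adhesion genes Cd44, the hyaluronan receptor, read 930, 1160 and 883 in GVHD and 5827, 6130, 4427, 6399 and 5970 in tumor, 5.65-fold higher (log2 2.50, SE 0.21, adjusted p = 5.6e-07). Itgb7, a chain of the gut-homing integrin, read 26211 to 30989 in GVHD and 4279 to 9938 in tumor (log2 -1.90, adjusted p = 2.8e-05), and Selplg, the selectin ligand PSGL-1, differed by -1.80. Itga4, Itgb7's partner, differed by -1.43 (adjusted p = 0.0097). Itgam (log2 2.01) is an integrin of macrophages. Itgb1 (log2 1.84) overlapped between groups, lost its call without GVHD replicate 1 (adjusted p = 0.059) and had another probe set at -0.19. Of 17 measured genes 4 were called in each direction, near the shares of all genes (20.2% higher and 18.6% lower). On the scale of the T cell genes Itgb7 and Selplg were at -0.18 and -0.02 (adjusted p = 0.54 and 0.94) and Itga4 at 0.48.

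Genes of resting cells and of homing gave some of the sharpest contrasts. Aff3, a nuclear protein of lymphoid cells, read 16.8, 15.5 and 6.33 in GVHD and 1132, 1507, 645, 1130 and 1536 in tumor (log2 4.71, SE 0.27, adjusted p = 1.7e-08). Igfbp4, a binding protein of insulin-like growth factors, read 468, 263 and 218 in GVHD and 19250, 26984, 22743, 21358 and 18858 in tumor, 65.2-fold higher (log2 6.03, adjusted p = 6.1e-08). Naive replicates 1 to 3 and 4 to 6 averaged 2157 ± 247 and 2890 ± 379 for Aff3, and 3766 ± 1208 and 4869 ± 3126 for Igfbp4 (SD, n = 3 each). On tumor replicate 3, which read low for T cell genes, Igfbp4 was as high as on the other tumor arrays. Dtx1, a regulator of Notch signalling tied to T cell anergy, went the other way, at 11861, 11374 and 13642 in GVHD against 1117, 959, 58.1, 546 and 522 in tumor, 24.3-fold lower (log2 -4.60, SE 0.56, adjusted p = 1.6e-05). With tumor replicate 3 left out Dtx1 was 15.8-fold lower. The naive sets averaged 12878 ± 780 and 12721 ± 966 for Dtx1 (SD, n = 3 each), so every tumor array read below every naive array. Rasgrp2, an activator of the adhesion GTPase Rap1, was 8.63-fold lower, and Satb1, a chromatin organiser, 6.53-fold lower, the latter with adjusted p = 0.073 without GVHD replicate 1. Of 18 genes 7 were called lower (18.6% of all genes were) and 4 higher, the latter near the 20.2% of all genes. Dtx1 (-2.47) and Rasgrp2 (-1.88) stayed lower relative to the T cell genes. Ramp1 was called higher (log2 0.95, adjusted p = 0.035) but lost its call without any of the 3 GVHD arrays or tumor replicates 1 or 2, and 2 further probe sets differed by -0.68 and -0.76.

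**Figure D4:**
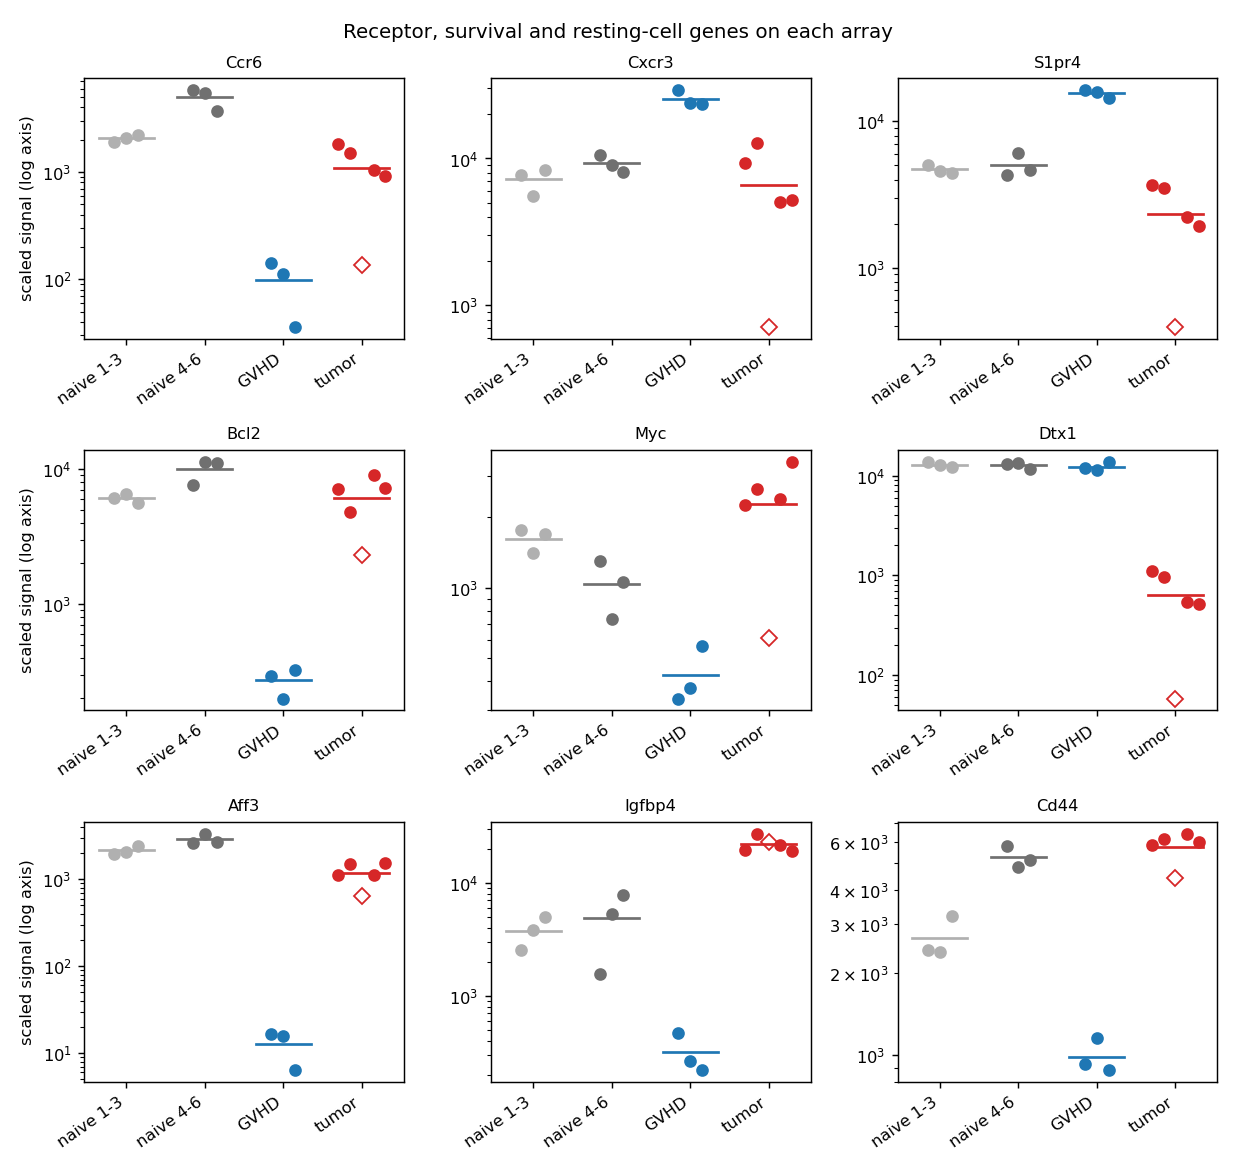
Scaled signal (log axis) of 9 receptor, survival and resting-cell genes on each array, by group; bars are group means and the open diamond is tumor replicate 3. Bcl2, Aff3, Igfbp4 and Cd44 lie higher on all 5 tumor arrays than on the GVHD arrays, S1pr4, Cxcr3 and Dtx1 lie lower, and for Ccr6 and Myc tumor replicate 3 reads 137 and 608.

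Ifng, the main cytokine of type 1 responses, read 4141, 3999 and 3273 in GVHD and 852, 782, 2185, 348 and 281 in tumor, 5.32-fold lower (log2 -2.41, SE 0.56, adjusted p = 0.0034). Tumor replicate 3 was the highest tumor array here, and without it the difference was -2.82. Relative to the T cell genes Ifng was at -1.31 (adjusted p = 0.016). Of 21 measured cytokines and chemokines 10 were called higher and 3 lower (median 1.09), against 20.2% and 18.6% of all genes. The highest were the myeloid chemokines Ccl6 (log2 6.59), Ccl9 (4.60) and Cxcl2 (4.44). Tumor replicate 3, which had the highest macrophage and mast cell sums, was the highest tumor array for 12 of the 21 (26.1% of all genes). Ltb, a lymphotoxin subunit, was called lower with overlapping arrays (log2 -1.83, adjusted p = 0.031) and lost its call in 5 of the 8 fits, those without any of the GVHD arrays or without tumor replicates 4 or 5.

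Interferon-stimulated genes are switched on by interferons through a promoter element whose core is GAAA, any 2 bases and GAAA again. They were mostly lower in tumor-activated cells: 19 of 33 measured genes were called lower and 1 higher (median -1.19). The shares over all genes were 18.6% lower and 20.2% higher. Ifi27l2a, an interferon-induced protein, read 62604, 30390 and 28470 in GVHD and 2271, 5507, 2659, 1286 and 1466 in tumor, 16.3-fold lower (log2 -4.03, SE 0.47, adjusted p = 1.1e-05). Isg20, an exonuclease, read 7676 to 14288 in GVHD and 729 to 2563 in tumor (log2 -3.03, adjusted p = 1.5e-05). Mx1, an antiviral GTPase, read 950, 743 and 457 against 85.9, 110, 76.3, 53.8 and 51.3 (log2 -2.77, adjusted p = 1.1e-05). Oasl2, of the oligoadenylate synthetase family, was the 1 called higher (log2 1.98, adjusted p = 0.0025). On the scale of the T cell genes 6 stayed lower (Ifi27l2a -2.57, Isg20 -1.40, Mx1 -1.27, with Oas1a, Ifit1 and Zbp1) and 13 were higher. Of all genes 0.737% were lower and 74.5% higher on that scale.

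The element was looked for in the 250 bases before each start in RefSeq (GRCm38.p6), on both strands. It was present in 12 of the 24 interferon-stimulated genes with an entry (50%), in 5 of the 11 called lower, and in 3.46% of all 27025 genes with an entry. It was found for none of Ifi27l2a, Isg20, Mx1 and Oasl2, so the 3 called-lower genes with the largest differences among those that have it are shown, a choice made after their values were seen. They show the letters at the promoters of genes that moved with the group; capitals mark the matches, and in Ifit1 and Ifit3 these lie on the opposite strand and read as the reverse complement. Ifit1, which binds viral RNA (chr19:34640749-34640868, plus strand, 694 to 1299 in GVHD and 76.7 to 339 in tumor):
Ifit1: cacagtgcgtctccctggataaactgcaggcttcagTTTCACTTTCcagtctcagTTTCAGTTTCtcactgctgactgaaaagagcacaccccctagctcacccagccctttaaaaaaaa
Oas3, an oligoadenylate synthetase (chr5:120777670-120777789, minus strand, 1493 to 2147 in GVHD and 238 to 527 in tumor):
Oas3: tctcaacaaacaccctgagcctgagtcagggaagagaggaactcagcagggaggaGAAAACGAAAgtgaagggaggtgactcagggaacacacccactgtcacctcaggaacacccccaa
Ifit3, a partner of Ifit1 (chr19:34583352-34583471, plus strand, 913 to 1624 in GVHD and 120 to 365 in tumor):
Ifit3: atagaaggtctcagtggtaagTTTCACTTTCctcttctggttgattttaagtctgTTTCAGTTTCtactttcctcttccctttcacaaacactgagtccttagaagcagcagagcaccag
All 3 were lower in tumor-activated cells (log2 -2.52, -2.31 and -2.18; adjusted p = 1.7e-04, 2.9e-05 and 8.3e-05).

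Cell cycle genes were lower as well. Of 27 mitosis genes 21 were called lower and 1 higher (median -1.34), and of 25 DNA replication genes 14 were lower and 0 higher (median -1.15). The shares over all genes were 18.6% lower and 20.2% higher. Mki67, the proliferation marker Ki-67, read 33195, 36148 and 31380 in GVHD and 10730, 12625, 3530, 6534 and 8555 in tumor, 4.35-fold lower (log2 -2.12, SE 0.36, adjusted p = 3.1e-04). The naive sets averaged 921 ± 107 and 6299 ± 2591 (SD, n = 3 each). Birc5, a passenger protein of chromosome segregation, read 11575, 8983 and 8864 in GVHD and 604, 759, 4692, 645 and 670 in tumor (log2 -3.25, adjusted p = 3.2e-04), and tumor replicate 3 stood apart from the other 4. Bub1b, a checkpoint kinase, differed by -2.74 and Ube2c, an enzyme of mitotic exit, by -2.19. Among replication genes Tk1, which salvages thymidine, differed by -2.18, Rrm1, of deoxynucleotide synthesis, by -1.82 and the clamp Pcna by -1.74. Ect2, which directs cytokinesis, was the 1 mitosis gene called higher (log2 1.43, adjusted p = 0.0025). Centred on the T cell genes Birc5 (-2.29), Bub1b (-1.10) and Tk1 (-0.92) stayed lower, and Mki67 was at -0.33. The naive sets differed in the same lists, with 21 mitosis and 8 replication genes higher in naive replicates 4 to 6 than in 1 to 3 (4.43% of all genes were). Mast cell and mastocytoma genes summed to 82317 to 175720 on the same tumor arrays, and their part was not tested.

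Genes of mitosis often carry a TTTGAA element, the core of the cell cycle homology region. Among RefSeq entries it lay on either strand within 250 bases before the start in 9 of 22 mitosis genes (40.9%), 6 of the 16 called lower, and 18.3% of all genes. The 3 named genes with it are shown, including the 1 that was higher; capitals mark the match, and in Ube2c it reads as the reverse complement. Ect2 (chr3:27153930-27154049, minus strand):
Ect2: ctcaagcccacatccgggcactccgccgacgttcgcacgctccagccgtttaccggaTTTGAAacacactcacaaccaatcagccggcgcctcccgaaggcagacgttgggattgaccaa
Ube2c (chr2:164769809-164769928, plus strand):
Ube2c: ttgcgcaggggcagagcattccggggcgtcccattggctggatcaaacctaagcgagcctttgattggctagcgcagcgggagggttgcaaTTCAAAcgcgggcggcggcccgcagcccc
Mki67 (chr7:135716415-135716534, minus strand):
Mki67: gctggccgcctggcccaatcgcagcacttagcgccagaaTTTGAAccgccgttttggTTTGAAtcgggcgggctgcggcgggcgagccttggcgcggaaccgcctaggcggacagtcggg
A match is a description of these letters only, and Ect2 and Mki67 moved in opposite directions.

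Of 22 genes of glycolysis and hypoxia 10 were called higher (20.2% of all genes were) and 4 lower, near the 18.6% of all genes. The other 8 were not called (median of the list 0.71). Bnip3, a mitophagy protein induced by hypoxia, read 11.7, 135 and 62.8 in GVHD and 4089, 5074, 8623, 4822 and 5912 in tumor, with a GVHD mean under the signal floor of 100 (log2 5.97, SE 0.36, adjusted p = 2.6e-08). Ndrg1, a stress protein, was 7.07-fold and Pdk1, which turns pyruvate away from mitochondria, 5.27-fold higher. The glycolytic enzymes Pkm (log2 -1.46, adjusted p = 7.5e-05) and Ldha (-1.07, adjusted p = 6.6e-04) were lower, as was the lactate exporter Slc16a3 (-0.74), whose call was lost in 5 of the 8 fits, those without any of the GVHD arrays or tumor replicates 1 or 5. Pkm and Ldha were at 0.15 and 0.35 relative to the T cell genes, and neither was called.

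Of 20 genes of the ATF4 response to amino acid shortage 14 were called higher (20.2% of all genes were) and 0 lower (18.6%). Their median was 1.27. Trib3, a pseudokinase of that response, read 87.3, 80.4 and 141 in GVHD and 2005, 1241, 700, 1471 and 1418 in tumor (log2 3.33, SE 0.33, adjusted p = 2.4e-06). Asns, asparagine synthetase, read 1109, 1038 and 834 against 5858, 5962, 10472, 5954 and 5480, 6.45-fold higher (adjusted p = 1.3e-06), and the amino acid transporter Slc7a5 was 5.37-fold higher. The naive sets averaged 114 ± 24.0 and 116 ± 49.9 for Trib3 (SD, n = 3 each). All 20 were higher relative to the T cell genes, as 74.5% of all genes were. Mast cell genes were also higher on the tumor arrays, and their part was not tested. Among the tumor arrays the ATF4 genes summed lowest on tumor replicate 3, at 80101 against 85707 to 105750 on the others. The mast cell sum was highest there, at 175720 against 82317 to 104440. The ATF4 genes were split on that array: 11 of the 20 were lowest on it and 6 highest (45.6% and 26.1% of all genes were). What set these levels was not tested.

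**Figure D5:**
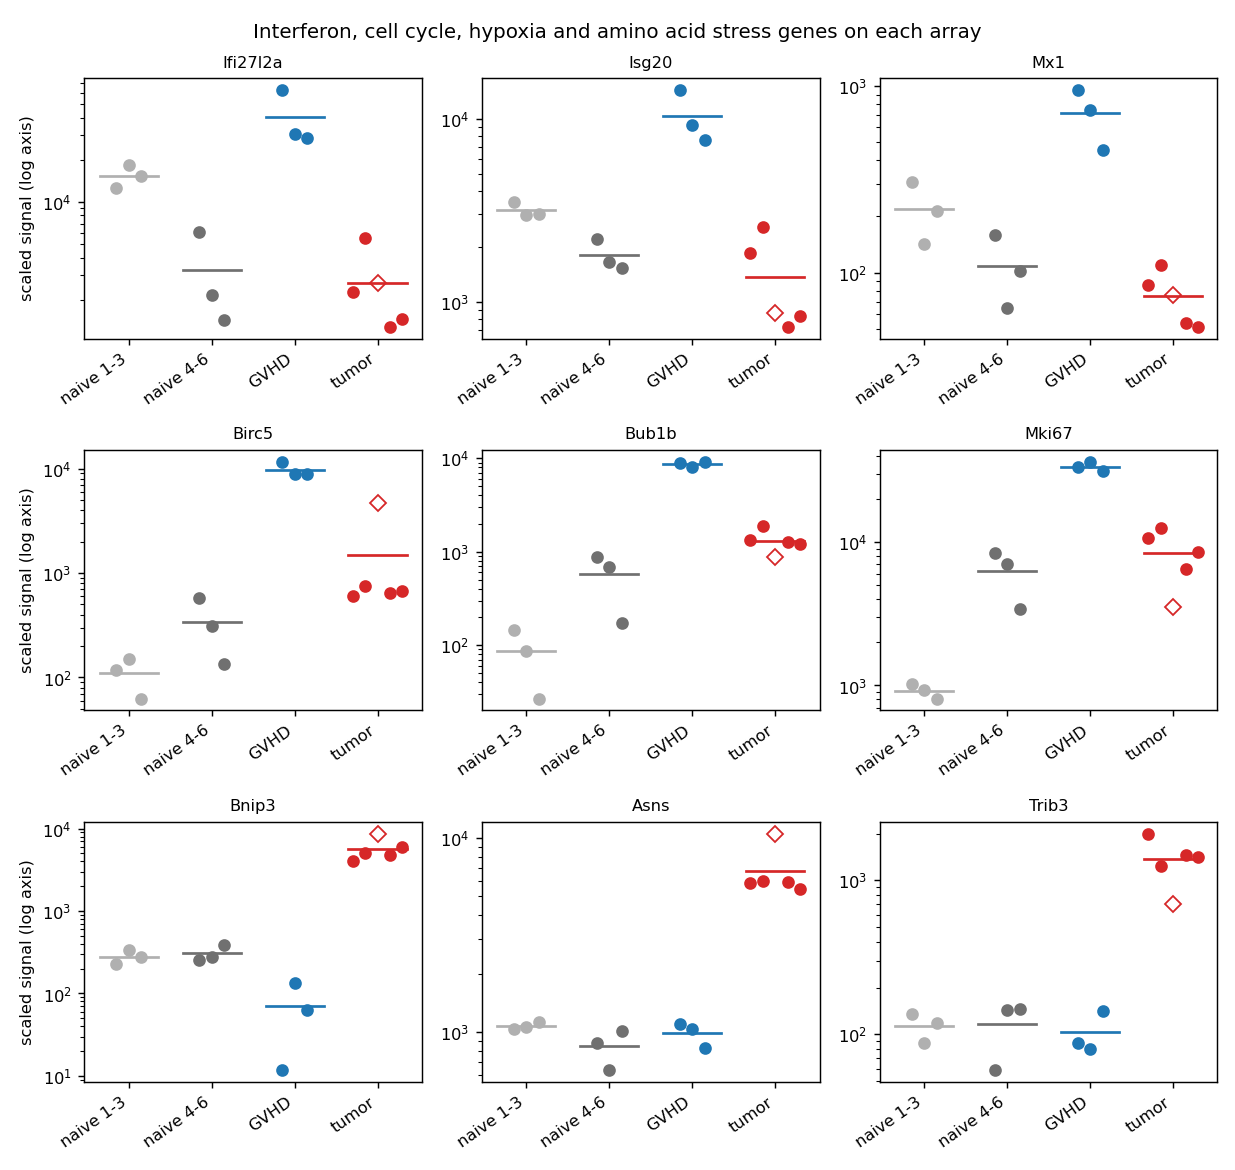
Scaled signal (log axis) of 3 interferon-stimulated genes, 3 cell cycle genes and the hypoxia and amino acid stress genes Bnip3, Asns and Trib3 on each array, by group; bars are group means and the open diamond is tumor replicate 3. Ifi27l2a, Isg20, Mx1, Birc5, Bub1b and Mki67 lie lower on all 5 tumor arrays than on the GVHD arrays, Bnip3, Asns and Trib3 lie higher, and Birc5 on tumor replicate 3 (4692) stands above the other tumor arrays.

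Other stress and metabolic lists moved less. Of 18 p53 targets 6 were called higher and 2 lower, against 20.2% and 18.6% of all genes. They were led by Perp (log2 3.58), Plk2 (2.64) and Sesn2 (1.67, with another probe set at -1.04) upward, and Gadd45b downward (-1.56). Mdm2, which degrades p53, was called lower at -0.78 but only barely: its call was lost in 6 of the 8 fits, all but those without tumor replicates 1 or 3. Among 22 genes of protein folding in the endoplasmic reticulum 4 were higher, against 20.2% of all genes, and 1, Dnajb11, was lower (-1.16). The higher ones included Xbp1 (1.30), with further probe sets at 1.11, 1.05 and -0.59, and its activator Ern1 (1.27), with further probe sets at -0.44 and -0.70. Dnajb9 (1.14) lost its call without GVHD replicates 2 or 3 or tumor replicates 4 or 5. Immediate early genes split, with the factor Klf4 (log2 4.71) and Ier3 (3.84) higher, and Junb (-2.59) and the mRNA-decay factor Zfp36 (-2.37) lower; Hspa1a (2.02) lost its call in 5 of the 8 fits, those without GVHD replicates 1 or 2 or tumor replicates 2, 4 or 5. Of 27 genes of oxidative phosphorylation 5 were called lower and 1 higher on all arrays, no larger a share lower than the 18.6% of all genes. Without tumor replicate 3 the calls were 13 lower and 1 higher, in a fit that called 22.4% of all genes lower and 26.1% higher. That replicate was the highest tumor array for 25 of the 27 (26.1% of all genes). Uqcrfs1 (-1.55) and Cox5b (-1.23) led; Sdhb (-1.05) lost its call without GVHD replicates 1 or 2 or tumor replicate 4, and Cox6c (0.87) without any GVHD array or tumor replicate 2. Of 19 genes of cholesterol synthesis 4 were lower, near the 18.6% of all genes, and Cyp51 (0.92) was higher; Dhcr7 differed by -1.10, Ebp (-1.02) lost its call in all but the fit without tumor replicate 3, and Tm7sf2 (-0.98) without GVHD replicate 3.

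Lysosomal genes were higher, with 13 of 20 called higher and 2 lower (median 1.09), against 20.2% and 18.6% of all genes. Ctsl, a cathepsin, read 195 to 355 in GVHD and 10715 to 31071 in tumor (log2 5.83, adjusted p = 3.5e-08), Ctsh differed by 4.85 and the hexosaminidase Hexa by 4.27. All 3 were highest on tumor replicate 3, as the macrophage and mast cell sums were, and the part of those cells was not tested. Ctse, a cathepsin also made by T cells, was lower (-1.58), but a second probe set differed by 2.75. Ctsa (-0.66) lost its call without GVHD replicate 1 or tumor replicate 4. Cytosolic ribosomal protein genes were lower, 11 of 18 with 0 higher (median -0.91), against 18.6% and 20.2% of all genes. Rpl4 differed by -1.41, Rps15 by -1.92 (adjusted p = 0.071 without GVHD replicate 1) and Rps27 by -1.30 (adjusted p = 0.058 without GVHD replicate 3). None of the 18 was lower on the scale of the T cell genes, where 8 were higher (74.5% of all genes were). On it Rpl4 was at -0.02 (adjusted p = 0.95). The naive sets differed in this list too, with 12 of the 18 lower in naive replicates 4 to 6 (3.43% of all genes were).

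Genes of MHC class II, which presents peptides to CD4 T cells, were called higher in 7 of 11 and lower in 0 (median 1.53). The shares over all genes were 20.2% higher and 18.6% lower. H2-Aa read 236, 82.0 and 152 in GVHD and 4842, 5364, 17472, 3763 and 4967 in tumor (log2 5.11, SE 0.48, adjusted p = 1.4e-06), and H2-Eb1 and H2-Ab1 differed by 3.93 and 3.20. Tumor replicate 3 was the highest tumor array for all 3. It also had the highest macrophage sum, 252200, and the highest mast cell sum, 175720, and the part of those cells was not tested. Of 14 B cell genes 3 were called lower and 0 higher (median -0.06), near the 18.6% of all genes called lower. Ighm, the immunoglobulin mu chain, read 15946 to 23560 in GVHD and 327 to 7004 in tumor (log2 -3.26, adjusted p = 0.0011). The others called, Tnfrsf13c (-1.05) and Cr2 (-0.90), were dim; Cr2 lost its call in 6 of the 8 fits, all but those without GVHD replicate 3 or tumor replicate 2, and Tnfrsf13c without GVHD replicate 2. The summed B cell signal, 17431 to 25391 in GVHD and 1888 to 9863 in tumor, was mainly that of Ighm on the GVHD arrays. Ms4a1 (1.44), Fcrla (0.98), Blk (0.83) and Fcer2a (0.71) stood on the other side and were not called.

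Markers of further cell types were measured in few genes each, and 38.8% of all genes were called in either direction. The 7 CD8 T and NK cell genes measured summed to 1531 to 2009 in GVHD and 587 to 1296 in tumor. Cd8b1 (log2 -1.47), Gzmk (-1.30, adjusted p = 0.09 without GVHD replicate 1) and Eomes (-0.94) were called lower and Klrd1 (1.31, 0.054 without GVHD replicate 1) higher. Eomes lost its call without GVHD replicates 2 or 3 or tumor replicates 2 or 5. Neutrophil genes summed to 741 to 2313 and 1110 to 1807, with Cxcr2 the 1 of 8 called. Of 5 measured erythroid and platelet genes Pf4 (4.09) and Itga2b (0.87) were higher and Klf1 (-1.07) lower, the last 2 losing their calls without GVHD replicate 3 and, for Itga2b, replicate 2, and for Klf1, also GVHD replicate 1 or tumor replicates 1, 4 or 5. Of 7 measured dendritic cell genes Clec10a (3.92) and Zbtb46 (1.23, lost without GVHD replicates 2 or 3) were called higher. Of 6 measured stromal genes Dcn (1.64) was called higher. Of the 4 measured sex-linked transcripts none was called in either direction.

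The genes lower even relative to the T cell genes were few, 90 in all. All 12 genes called lowest with separated arrays were among them. Centring shifts all genes of an array by the same amount, so genes picked as lowest on the array scale tend to stay low. The uncharacterised gene 1500009L16Rik read 7209, 8158 and 5576 in GVHD and 281, 548, 101, 134 and 73.8 in tumor. It was 32.8-fold lower (log2 -5.03, SE 0.54, adjusted p = 4.3e-06) and stood at -3.36 relative to the T cell genes. Depp1, a target of Foxo factors, read 1003, 4235 and 8649 in GVHD and 132, 67.9, 415, 59.9 and 64.7 in tumor (log2 -4.54, relative -3.43). Cd48, a ligand of the receptor Cd244, was 11.6-fold lower (relative -1.96), Tle5, a Groucho family co-regulator, 10.6-fold (relative -1.75) and Dusp4, a phosphatase of MAP kinases, 10.1-fold (relative -1.05, adjusted p = 0.016). Naive replicates 1 to 3 and 4 to 6 averaged 56.9 ± 70.1 and 308 ± 168 for 1500009L16Rik, and 3183 ± 124 and 687 ± 421 for Tle5 (SD, n = 3 each).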

How the data were processed

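Trizol-extracted RNA carried a biotin label, per the labels' protocols. The authors computed MAS5 signals, per the submitters' processing notes (of a version not given in the sources used here). Linear intensities were deposited by the authors, with a trimmed mean of 1500 on the GVHD arrays and 500 on the others. Signals were multiplied so that all arrays had the same 2% trimmed mean, 500, then 32 was added and log2 taken. Probe sets with a scaled signal of at least 100 on at least 3 arrays were kept (22143). Of the probe sets, controls aside, 34945 carried 1 gene symbol in the platform annotation, 932 several and 9160 none; only those with 1 were used, 34741 matched the RefSeq table of GRCm38.p6, and the probe set of highest mean log2 signal stood for its gene (12212 genes). limma 3.58.1 in R 4.3.3 (lmFit, eBayes with trend) was fitted to 4 groups over all 14 arrays, with Benjamini-Hochberg adjustment over all genes, and was tested on simulated data. The number of arrays limits the precision.

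Named were the 12 largest differences each way among called genes with separated arrays, up to 3 called members of each of 32 lists each way, and a set of key genes: 152 in all, 150 of them tested. Foxp3 did not pass the filter, and 1 further gene is not reported here. The members, lists and key genes were chosen with earlier results of these data known. Alternatives covered scaling, offset, filter, probe set choice, array weights, the replicate block, the arrays in the fit and each array left out. Leaving out tumor replicates 2 and 3 together, and replicate 3 from the 8 arrays alone, were added after seeing the data.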

Additional observations from a re-analysis of the deposited data

Results flagged for a closer look

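In 24 of the 150 named genes 1 of the 5 tumor arrays stood apart from the other 4, with a gap to the nearest array above 0.71 of the group's range, Dixon's 95% critical value, tested on log2 values. Chance alone flags about 1 in 20 groups. The array was tumor replicate 3 for 22 of them.

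Tumor replicate 3 was the lowest array for 14 genes. Dtx1 read 58.1 there and 522 to 1117 on the other 4. Zap70 read 11.9 there and 640 to 1196 on the other 4. Cd4 read 21.6 there and 687 to 1298 on the other 4. Cd3e read 39.5 there and 574 to 1261 on the other 4. Ikzf2 read 896 there and 8511 to 19395 on the other 4. Tbx21 read 66 there and 598 to 1126 on the other 4. Ccr6 read 137 there and 920 to 1814 on the other 4. Cd44 read 4427 there and 5827 to 6399 on the other 4. Itgb7 read 4279 there and 8039 to 9938 on the other 4. Myc read 608 there and 2253 to 3450 on the other 4. Jak3 read 103 there and 706 to 1351 on the other 4. Jak1 read 274 there and 1557 to 2543 on the other 4. Slc7a5 read 2612 there and 7504 to 9042 on the other 4. Mdm2 read 495 there and 1129 to 1361 on the other 4.

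It was the highest array for 8 genes. Arg1 read 39333 there and 25552 to 28669 on the other 4. Tph1 read 28099 there and 18270 to 20097 on the other 4. Mcpt8 read 20916 there and 6021 to 8609 on the other 4. H2-Aa read 17472 there and 3763 to 5364 on the other 4. H2-Eb1 read 9899 there and 1637 to 2498 on the other 4. H2-Ab1 read 8227 there and 1034 to 1797 on the other 4. Birc5 read 4692 there and 604 to 759 on the other 4. Asns read 10472 there and 5480 to 5962 on the other 4.

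Tumor replicate 2 stood highest for a pair of dim B cell genes. Cr2 read 89.6 there and 24.0 to 34.5 on the other 4, and Tnfrsf13c read 205 there and 73.3 to 100 on the other 4.

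The same test on array measures, without logs, set apart tumor replicate 2, with a Gapdh 3'/5' ratio of 19.9 against 2.19 to 2.64 and an actin 3'/5' ratio of 6.37 against 1.78 to 2.45. It also set apart tumor replicate 3, with 37.3% of probe sets at a signal of 100 or more against 45.6% to 47.7%.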

How the results depend on the processing

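On the array scale, quantile normalization, both other offsets (1 and 100), both other filters, the mean over probe sets, the 8 arrays alone, array weights, leaving out tumor replicates 2 and 3 together and leaving replicate 3 out of the 8 arrays alone kept the counts of higher and lower genes within 1.5 times. Scaling did not. On the values as deposited, where the median over all genes was -1.54, 669 genes were higher and 9040 lower. Centred on the T cell genes (median 1.96) 8813 were higher and 20 lower, and without tumor replicate 3 as well 9099 and 90. Leaving out each array in turn gave 1997 to 3192 higher and 1608 to 2730 lower genes. Between the naive sets 39 genes were called when centred on the T cell genes, 5248 with array weights, which did not reach their convergence tolerance, and 295 to 873 with an array left out (at most 429 unless that array was naive replicate 4).

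With the replicate number as a replicate block 1605 genes were higher and 1230 lower, and 19 differed between the naive sets. The deviations of same-numbered tumor and GVHD arrays correlated at -0.01, -0.13 and -0.02. Of the 3 GVHD arrays 0 correlated best with the tumor array of their own number. No pairing by number showed in these values, but so few arrays cannot exclude one, and the naive arrays were not compared in this way.

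Of the 146 named genes that were called, 116 stayed called with any single array left out. Log2 differences changed sign as follows. Centred on the T cell genes: Cd8b1 0.59, Gzmk 0.75, Eomes 1.11, Il2ra 0.30, Ikzf2 1.13, Tnfrsf18 0.63, Prdm1 0.93, Itgb7 0.16, Selplg 0.26, Rrm1 0.23, Pcna 0.32, Pkm 0.59, Ldha 0.98, Uqcrfs1 0.51, Cox5b 0.82, Dhcr7 0.95, Gadd45b 0.49, Dnajb11 0.90, Ctse 0.47, Rps15 0.13, Rpl4 0.64, Tpsab1 1.09, Cr2 1.15, Klf1 0.99, Slc16a3 1.31, Sdhb 1.00, Ebp 1.04, Tm7sf2 1.07, Rps27 0.76, Ctsa 1.40, Mdm2 1.27, Itga4 0.62, Ltb 0.22, Tnfrsf13c 1.01. Centred on the T cell genes without tumor replicate 3: Cd4 0.00, Cd3e 0.09, Cd8b1 0.20, Gzmk 0.40, Eomes 0.62, Il2ra 0.53, Ikzf2 1.32, Tnfrsf18 0.37, Tbx21 0.03, Prdm1 0.97, Pkm 0.15, Ldha 0.35, Cox5b 0.12, Dhcr7 0.56, Gadd45b 0.16, Dnajb11 0.23, Ctse 0.14, Tpsab1 0.47, Cr2 0.63, Klf1 0.29, Slc16a3 0.86, Sdhb 0.27, Ebp 0.17, Tm7sf2 0.54, Rps27 0.09, Ctsa 0.88, Mdm2 0.98, Itga4 0.48, Ltb 0.22, Tnfrsf13c 0.55. On the values as deposited: Ikzf4 -0.24, Serpinb9 -0.31, Ctsc -0.37, Pdcd1 -0.13, Bcl6 -0.23, Ccr7 -1.38, Ramp1 -0.52, Ect2 -0.11, Cyp51 -0.63, Xbp1 -0.27, Ern1 -0.26, Dnajb9 -0.42, Itga2b -0.61, Id2 -0.83, Cox6c -0.71. With the mean over probe sets: Ramp1 -0.16, Ctse 0.58, Id2 -0.06. Without tumor replicate 2: Ccr7 -0.03 (0.36 without tumor replicate 3). The scaling alternatives shift all genes together, as the medians show, and for the others the cause was not tested. Of 89 further probe sets of named genes, 14 were opposite in sign to a called gene. Dim probe sets near the floor of 100 carry the least certain differences.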

Other observations

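Among the 90 genes lower relative to the T cell genes were several outside the rule for named genes, chosen here after their values were seen. Cd7, a surface protein of T cells, differed by -1.61 on the log2 scale relative to the T cell genes (limma adjusted p = 7.2e-04) and by -3.28 on the array scale. Anxa6, a membrane-binding annexin, differed by -1.44 (adjusted p = 2.6e-05) and -3.20. Pik3cd, the delta catalytic subunit of phosphoinositide 3-kinase in leukocytes, differed by -2.56 (adjusted p = 0.048) and was not called on the array scale, where it stood at -3.27. These are values only, and no explanation for them was tested.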
